A study of Homo sapiens with 12 samples.

Results

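The data described here measure the early response to tumor necrosis factor alpha (TNFα) of cells in which ERβ (estrogen receptor beta, encoded by ESR2) was already active. They are 6 of the 12 RNA-seq libraries of the series, chosen by treatment: 3 libraries of E2-treated cells and 3 libraries of E2+TNFα-treated cells. All came from MDA-MB-231-ERβ, a single human triple negative breast cancer (TNBC) cell line with mesenchymal character that carries an artificial full length ERβ, switched on by doxycycline (dox). Both groups received 1 nM E2 (17β-estradiol, the ligand of ERβ) for 5 days, in dishes seeded in medium with charcoal-stripped serum and dox, and the E2+TNFα group received 20 ng/ml TNFα as well for the final 3 h. The label of the E2+TNFα libraries does not name dox, and its use there is taken from the treatment description and the study's methods. The other 6 libraries, vehicle (ethanol with dox) and TNFα (TNFα with dox), entered the same fit and serve below as the comparison in cells without E2. Dishes were plated in triplicate. The study describes its in vitro work as biologically replicated, but the labels do not say whether these libraries came from separate cultures, so p-values measure the spread between these libraries, part of which may be technical. The comparison asks what TNFα still changes after ERβ has been active for days.

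TNFα binds TNFR1 (TNFRSF1A) on the cell surface, which gathers TRADD, RIPK1, TRAF2 and the ligases BIRC2 and BIRC3 into a complex that activates the IκB kinases. These mark IκBα (NFKBIA) for degradation, and NFκB dimers such as p65 (RELA) with p50 (made from NFKB1) then enter the nucleus and bind κB sites in promoters and enhancers. The early targets are chemokines, cytokines, survival factors and adhesion molecules, together with inhibitors such as NFKBIA and TNFAIP3 that switch the pathway off again. In TNBC this pathway is known for its links to inflammation, migration and survival, and estrogen receptors are known to counter it.

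Library sizes, the reads assigned to genes by the authors, were 15.8, 7.65 and 11.9 M reads for E2 replicates 1 to 3 and 16.8, 27.1 and 36.7 M reads for E2+TNFα replicates 1 to 3, with 7.65 to 39.9 M reads over all 12 libraries. Levels are given as CPM, the reads of a gene divided by the TMM-scaled library size in M reads. Replicates differed more than counting allows, with chi-square per degree of freedom between 19.7 and 71.3. Across genes, Spearman correlations of log2 CPM were 0.973 to 0.991 within the groups and 0.958 to 0.989 between them. E2 replicate 2, the smallest library, stood apart on the first principal component of the 6 libraries, which held 48.5% of their variance. The 3 vehicle libraries stood apart from the other 9 in many genes, for example EDARADD at 7.34 to 8.28 CPM against 1474 to 1967 CPM in E2+TNFα libraries, so results are also given with the 6 libraries of E2 and E2+TNFα alone in the fit. The cells carried the markers of the line: VIM, a mesenchymal filament, was 1541, 1317 and 1495 CPM in the E2 libraries and 1518, 1280.2 and 1665 CPM in the E2+TNFα libraries, and CD44 was between 828 and 1111 CPM. ESR2 reads were present in every library of both groups, at 321, 304 and 292 CPM in the E2 libraries and 432, 404 and 507 CPM in the E2+TNFα libraries, so the induced receptor was transcribed in the E2+TNFα libraries too. Among markers of leukocytes and fibroblasts, CD14 was at most 1.35 CPM in these libraries, CD68, which tumor cells also express, was 92.3, 96.0 and 91.9 CPM in the E2 libraries and 87.7, 73.2 and 106 CPM in the E2+TNFα libraries, and COL1A1 ranged from 3.43 to 6.85 CPM. Of 9 cell type markers tested, 2 were higher and none lower, namely ESR2 and PDGFRB. PDGFRB, a receptor typical of fibroblasts, was 2.53, 3.66 and 2.26 CPM in the E2 libraries and 5.55, 4.92 and 6.13 CPM in the E2+TNFα libraries (log2 1.02, SE 0.21, adjusted p = 0.0236), and with the 6 libraries alone neither marker was called (adjusted p = 0.307 for PDGFRB and 0.143 for ESR2). In RNA from whole dishes, more RNA per cell and more cells expressing a gene cannot be told apart.

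Of 11303 genes tested, 44 were higher (0.389%) and 2 were lower (0.0177%) in E2+TNFα than in E2 libraries past the thresholds of the study (log2 fold change of at least 1.5 in size, p under 0.05, adjusted p up to 0.1). By an adjusted p up to 0.1, whatever the size, 300 genes were higher (2.65%) and 378 lower (3.34%). The counts of each list below are to be read beside these shares. The median log2 fold change over all genes was 0.01. With 1 unwanted factor estimated from housekeeping genes in the fit, a kind of correction that the study applied to its batches, 38 genes were higher and 22 lower past the thresholds, and leaving out 1 library gave 34 (without E2 replicate 1) to 84 genes (without E2 replicate 3). With the 6 libraries alone in the fit, which leaves the spread to be estimated from these libraries, 30 genes passed the thresholds (0.265%), all of them higher, and 86 had an adjusted p up to 0.1 (0.761%), 74 higher and 12 lower. Of the 44 rises, 29 were also called with the 6 libraries alone and 16 stayed past the thresholds in all 24 alternatives planned: the chemokines CXCL1, CXCL2, CXCL3 and CXCL8, the cytokines IL1A, IL1B, IL6 and CSF2, the regulators TNFAIP2, TNFAIP3, TRAF1 and IRF1, the innate immune protein PTX3, the ephrin EFNA1, and PLPP3 and USP43. TNF, CCL20, N4BP3 and IFNL1 were left untested by the filter of at least 10 counts in every library. They stayed past the thresholds in the 23 alternatives that tested them. For 40 of the 44 rises, the lowest E2+TNFα library was above the highest E2 library, and over all genes this held for 6.05%. Among the 44, CCL20, CCL2, IFNL1, BDKRB1, N4BP3, TMEM88, MEFV, CD69 and C11orf98 met the RPKM filter only through libraries treated with TNFα, with or without E2.

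**Figure D1:**
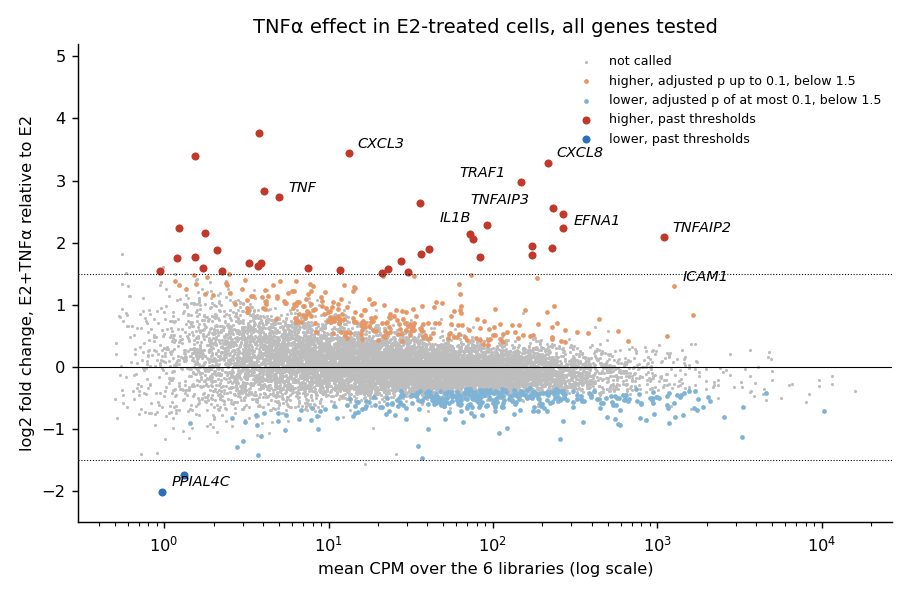
Log2 fold change of E2+TNFα relative to E2 (vertical axis) against the mean CPM over the 6 libraries (horizontal log axis) for the 11210 genes with a mean of at least 0.5 CPM, leaving out the genes with at most 3 reads summed over the E2 libraries that are past the thresholds. Dotted lines mark 1.5 in either direction. The vertical axis is cut, and AARSD1 (mean 0.61 CPM, log2 8.14, not called) lies above it. Large red points are rises past the thresholds, among them CXCL3, CXCL8, TRAF1 and TNFAIP2, and the only large blue points are PPIAL4A and PPIAL4C.

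Chemokines, the secreted signals that draw leukocytes, formed the list with the highest median under the RPKM filter used here. Of 11 chemokines tested, 6 rose past the thresholds and none fell, and the median log2 fold change was 1.91, which is the same with CCL20 at its lower bound. With the 6 libraries alone 5 were called. CCL20 and CCL2 met the RPKM filter only through TNFα-treated libraries. With at least 10 counts required in every library, 8 chemokines were tested and 4 were higher. Their median was then 0.97, below that of the NFκB subunits at 1.06. CXCL3, a neutrophil attractant, was 1.98, 2.71 and 2.17 CPM in the E2 libraries and 26.1, 22.7 and 23.9 CPM in the E2+TNFα libraries. The groups were far apart and the replicates close, and the log2 fold change was 3.45 (SE 0.19, adjusted p = 3.50e-08). CXCL1 and CXCL2, which also attract neutrophils, lie near it on chromosome 4. CXCL1 was 62.8, 72.4 and 77.6 CPM in the E2 libraries and 278, 267 and 277 CPM in the E2+TNFα libraries, with a log2 fold change of 1.95 (SE 0.11, adjusted p = 3.50e-08). CXCL2 was 13.3, 18.5 and 19.9 CPM in the E2 libraries and 69.0, 63.9 and 59.6 CPM in the E2+TNFα libraries, with a log2 fold change of 1.91 (SE 0.15, adjusted p = 1.58e-06). CXCL8, which encodes interleukin 8, was much more variable, at 69.9, 13.8 and 33.7 CPM in the E2 libraries and 362, 694 and 119 CPM in the E2+TNFα libraries. Its groups did not overlap, but E2+TNFα replicate 3 was less than 2 times above E2 replicate 1, and the log2 fold change of 3.29 had an SE of 0.56 (adjusted p = 0.00625). Within each group its levels ran in the order of the libraries on the first principal component, and with an unwanted factor estimated from housekeeping genes the log2 fold change was 1.80. What part the factor had in the change was not tested.

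Both CC chemokines that rose were scarce. CCL20, which attracts dendritic cells and lymphocytes, had 0 reads in every E2 library and 18, 48 and 16 reads in the E2+TNFα libraries, at least 11.2-fold higher when 3 reads are taken for the E2 group as a whole. CCL2, a monocyte attractant, had 2, 1 and 0 reads against 16, 42 and 17 reads, a ratio of 10.2 (exact 95% interval 3.37 to 50.7, counting error only). Both sets of reads were separate between the groups, but CCL2 had an adjusted p of 0.197 with the 6 libraries alone. The other 5 chemokines tested did not pass: CCL5, CCL28, CXCL14, CXCL16 and CCL26 had log2 fold changes between -0.67 and 0.26. CXCL14, a chemokine of epithelia, was 188, 232 and 203 CPM in the E2 libraries and 187, 154 and 189 CPM in the E2+TNFα libraries, and its groups overlapped.

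The sequences before the start sites of the induced chemokines, cytokines and inhibitors are shown because these genes are known NFκB targets. Promoters were taken from RefSeq (GRCh38.p14), and the 250 bases before each start were searched on both strands for the κB consensus, the 10-base site of NFκB dimers. Of the 30 members of the chemokine, cytokine and inhibitor lists that were higher, 26 had a promoter there and 13 of these held a match. Over all 35116 promoters a match was found in 9.96%, and over the 9316 tested genes with a promoter in 15.6%. The shares were 34.2% for rises past the thresholds (13 of 38), 24.5% for the smaller rises (51 of 208) and 13.4% for the smaller falls (43 of 322). The members with the largest rises that held a match are printed 5′ to 3′ in the direction of the gene, with capitals for the matched bases. Where the match lies in an exon or UTR of another transcript, only 30 bases are shown.
CCL20: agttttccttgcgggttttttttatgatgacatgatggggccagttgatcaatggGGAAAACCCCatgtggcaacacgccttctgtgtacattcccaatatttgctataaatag
CXCL3: ctggagctccGGGAATTTCCCtggcccggc
CXCL1: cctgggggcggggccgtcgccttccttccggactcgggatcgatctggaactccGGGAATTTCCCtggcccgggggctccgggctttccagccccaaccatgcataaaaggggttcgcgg
CXCL2: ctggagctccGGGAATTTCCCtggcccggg
TNFAIP3: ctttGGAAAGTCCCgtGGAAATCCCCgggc
IL6: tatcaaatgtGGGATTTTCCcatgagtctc
LTB: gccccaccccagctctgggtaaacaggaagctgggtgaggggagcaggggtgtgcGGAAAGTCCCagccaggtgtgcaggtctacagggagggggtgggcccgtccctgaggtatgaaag
LTA: tctaagccctGGGGGCTTCCCcgggcccca
These stretches lie at chr2:227813708-227813821 (plus strand), chr4:74038749-74038778 (minus strand), chr4:73869260-73869379 (plus strand), chr4:74099254-74099283 (minus strand), chr6:137867188-137867217 (plus strand), chr7:22727117-22727146 (plus strand), chr6:31582447-31582566 (minus strand) and chr6:31572175-31572204 (plus strand), in the order printed. The matches nearest the start begin between 55 and 103 bases before it. CXCL1, CXCL2 and CXCL3 carry the same run of 11 bases, in which a match on one strand overlaps a match on the other, and TNFAIP3 carries a pair of matches separated by 2 bases. A match is a description of these letters and not a measured binding site.

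Cytokines and growth factors carry the signal to other cells and back to the same cells. Of 26 tested, 12 were higher and none lower, 6 of them past the thresholds, and the median log2 fold change was 0.37. In the fit of the 6 libraries alone 8 were called. TNF, the gene of the ligand itself, was 1.84, 0.955 and 0.903 CPM in the E2 libraries and 9.81, 7.54 and 8.88 CPM in the E2+TNFα libraries, with a log2 fold change of 2.74 (SE 0.26, adjusted p = 1.5e-05). The highest E2 library was below the lowest E2+TNFα library by a wide margin, although the level stayed low. IL1A and IL1B encode the interleukin 1 cytokines, which activate NFκB through their own receptor. IL1B was 28.1, 26.4 and 39.3 CPM in the E2 libraries and 157, 147 and 152 CPM in the E2+TNFα libraries, a rise of 4.85-fold with close E2+TNFα replicates and E2 replicate 3 above the other two E2 libraries (log2 2.28, SE 0.14, adjusted p = 7.12e-08). IL1A was 15.2, 5.89 and 7.76 CPM in the E2 libraries and 53.5, 109 and 26.1 CPM in the E2+TNFα libraries, and its log2 fold change of 2.64 (SE 0.42, adjusted p = 0.00414) rested on libraries that varied as those of CXCL8 did. For IL1A the highest E2+TNFα value came from replicate 2 and the lowest from replicate 3, as for CXCL8, and its order too was that of the libraries on the first principal component.

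IL6, the cytokine that signals through STAT3, was 94.0, 89.8 and 104 CPM in the E2 libraries and 353, 323 and 405 CPM in the E2+TNFα libraries, with a log2 fold change of 1.91 (SE 0.12, adjusted p = 1.15e-07). CSF2, which encodes the growth factor GM-CSF of granulocytes and macrophages, was 71.9, 81.2 and 77.3 CPM in the E2 libraries and 259, 242 and 299 CPM in the E2+TNFα libraries, with a log2 fold change of 1.80 (SE 0.12, adjusted p = 1.24e-07). LTB, a membrane-bound relative of TNF, was 35.4, 41.1 and 37.1 CPM in the E2 libraries and 98.0, 112 and 177 CPM in the E2+TNFα libraries, with a log2 fold change of 1.78 (SE 0.21, adjusted p = 2.39e-04). The E2 libraries of these 3 genes were close to each other, and every E2+TNFα library was more than 2 times the highest of them. The 2 other colony stimulating factors rose by less than the size threshold. CSF1, the growth factor of macrophages, was 89.4, 118 and 93.5 CPM in the E2 libraries and 259, 219.8 and 331 CPM in the E2+TNFα libraries (log2 1.43, SE 0.15, adjusted p = 4.05e-05). CSF3, that of neutrophils, was 0.751, 2.07 and 1.44 CPM in the E2 libraries and 2.65, 3.00 and 4.96 CPM in the E2+TNFα libraries, just under the threshold at 1.49 (SE 0.32, adjusted p = 0.0261), and had an adjusted p of 0.289 with the 6 libraries alone.

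LTA, the secreted lymphotoxin encoded next to TNF, had a log2 fold change of 1.32 (SE 0.32, adjusted p = 0.0424), from 1.43, 1.43 and 1.26 to 4.57, 2.62 and 3.26 CPM. EREG, a ligand of the epidermal growth factor receptor, had 0.89 (SE 0.18, adjusted p = 0.0236), the vasoconstrictor EDN1 0.59 (SE 0.13, adjusted p = 0.0261) and INHBA, a subunit of activin, 0.57 (SE 0.11, adjusted p = 0.0185), in each case with separate groups. LTA, EDN1 and INHBA had adjusted p values of 0.262, 0.231 and 0.137 with the 6 libraries alone. IL11, a relative of IL6 that was among the targets measured by RT-qPCR in the study, was 23.8, 30.6 and 28.3 CPM in the E2 libraries and 28.6, 23.4 and 26.7 CPM in the E2+TNFα libraries, and its groups overlapped (log2 -0.06, adjusted p = 0.901). LIF, VEGFA, IL32 and AREG, all well detected, had log2 fold changes of 0.31, -0.06, -0.05 and -0.02 and did not pass. Another RT-qPCR target, the lipoxygenase activator ALOX5AP, was 2.32, 4.14 and 0.993 CPM in the E2 libraries and 1.17, 1.57 and 2.0 CPM in the E2+TNFα libraries, with overlapping groups. BCL2A1, a survival factor that the study names as a p65 target in tumors, was at most 1.33 CPM in these libraries and had too low an RPKM to be tested.

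**Figure D2:**
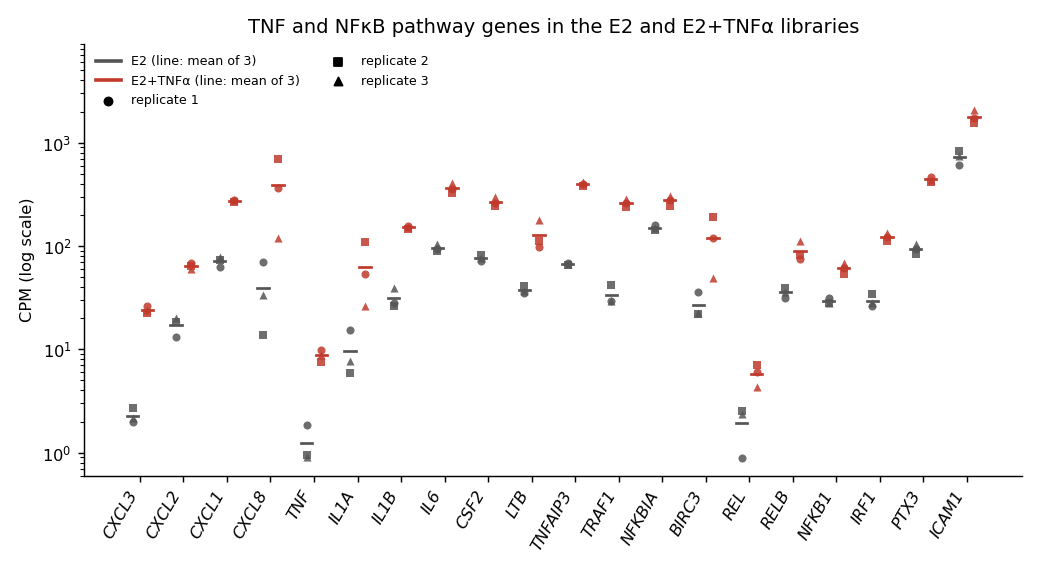
CPM (vertical log axis) of 20 genes of the TNF and NFκB pathway in each of the 3 E2 libraries (grey) and 3 E2+TNFα libraries (red), where the shape of a point gives the replicate and the line the mean of 3. The red points lie above the grey points for every gene shown, with narrow gaps for IL1A, CXCL8 and BIRC3, whose replicate 3 (triangle) is the lowest red point, and for REL, NFKB1 and NFKBIA.

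The response included the machinery of the pathway itself. Of the 5 NFκB subunits, 4 were higher and none lower, and the median log2 fold change was 1.05. The 6 libraries alone left RELB and NFKB1 called. RELB, the partner of p52, was 31.2, 39.5 and 36.0 CPM in the E2 libraries and 74.7, 81.4 and 111 CPM in the E2+TNFα libraries, and NFKB1 was 31.5, 28.3 and 28.2 CPM in the E2 libraries and 61.6, 53.5 and 67.7 CPM in the E2+TNFα libraries. Both were separate between the groups, with log2 fold changes of 1.33 (SE 0.15, adjusted p = 1.47e-04) and 1.05 (SE 0.12, adjusted p = 1.71e-04). REL, which encodes c-Rel, was 0.888, 2.55 and 2.35 CPM in the E2 libraries and 6.05, 6.98 and 4.37 CPM in the E2+TNFα libraries. Its log2 fold change of 1.67 (SE 0.37, adjusted p = 0.0316) passed the thresholds, but it had an adjusted p of 0.136 with the 6 libraries alone. NFKB2, the source of p52, was 100.3, 149.6 and 125 CPM in the E2 libraries and 162, 156 and 217 CPM in the E2+TNFα libraries (log2 0.52, SE 0.16, adjusted p = 0.0917), and E2 replicate 2 was within 6.32 CPM of the lowest E2+TNFα library. RELA, which encodes p65, was the most abundant subunit by RPKM, at a mean of 119.8 RPKM in E2 and 115 RPKM in E2+TNFα libraries against 6.02 and 13.5 RPKM for NFKB1. RELA was 309.8, 419 and 316 CPM in the E2 libraries and 295, 278 and 339.6 CPM in the E2+TNFα libraries, with overlapping groups and a log2 fold change of -0.19 (adjusted p = 0.442).

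Inhibitors and modulators that act back on the pathway are a well known arm of the response. Of 23 tested, 12 were higher and none lower, 3 of them past the thresholds, and the median log2 fold change was 0.50. TNFAIP3, which encodes A20, the enzyme that edits ubiquitin on RIPK1, was 68.3, 65.3 and 67.7 CPM in the E2 libraries and 395, 384 and 414 CPM in the E2+TNFα libraries. The replicates of each group were within a few percent of their mean, and the log2 fold change was 2.57 (SE 0.12, adjusted p = 5.28e-09). TRAF1, an adaptor that modulates TNF receptor signals, was 29.4, 42.2 and 29.3 CPM in the E2 libraries and 262, 241 and 283 CPM in the E2+TNFα libraries, with a log2 fold change of 2.97 (SE 0.15, adjusted p = 9.61e-09). TNFAIP2, a TNF-induced protein involved in membrane protrusions, was 381, 466 and 406 CPM in the E2 libraries and 1651, 1579.9 and 2082 CPM in the E2+TNFα libraries, with a log2 fold change of 2.09 (SE 0.13, adjusted p = 7.12e-08). No E2+TNFα library of these 3 genes came within 3 times the highest E2 library.

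NFKBIA, the inhibitor that holds NFκB in the cytoplasm, rose 1.85-fold, from 159, 142 and 149 CPM to 279.9, 245 and 304 CPM (log2 0.88, SE 0.11, adjusted p = 2.39e-04). Its relatives NFKBIE and NFKBIZ rose by 0.67 and 0.75, and the IκB-like coactivator BCL3 by 0.67 on the log2 scale. The ribonuclease gene ZC3H12A, which limits cytokine mRNAs, rose by 0.56 and its relative ZC3H12C by 1.22. The ubiquitin-binding A20 partner TNIP1, the ligase PELI1 and the adaptor TRAF3 rose by 0.50, 0.77 and 0.43. Of these 12, 4 were called with the 6 libraries alone, and the values with 6 libraries for NFKBIZ, BCL3 and TNIP1 were adjusted p = 0.14, 0.173 and 0.269. The deubiquitinase CYLD, the mRNA decay factor ZFP36 and SOCS3 did not pass, at 0.45, 0.18 and -0.32.

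Receptors and proximal adaptors lie upstream of these. Of 22 tested, 2 were higher and 1 lower, against 2.65% and 3.34% of all genes, and the median log2 fold change was 0.07. TNFRSF1A, the main receptor, was 185, 248 and 189.6 CPM in the E2 libraries and 172, 159.8 and 206 CPM in the E2+TNFα libraries, with overlapping groups. BIRC2, a ubiquitin ligase of the receptor complex, was 21.1, 15.6 and 17.6 CPM in the E2 libraries and 35.5, 40.4 and 20.7 CPM in the E2+TNFα libraries (log2 0.82, SE 0.23, adjusted p = 0.0695), and TAB2, an adaptor of the kinase TAK1, was 19.3, 17.5 and 24.8 CPM in the E2 libraries and 37.0, 35.4 and 28.0 CPM in the E2+TNFα libraries (log2 0.69, SE 0.15, adjusted p = 0.0316). In both, E2+TNFα replicate 3 lay close to the E2 libraries, and neither was called with the 6 libraries alone (adjusted p = 0.235 and 0.231). FADD, the adaptor that links the receptor to caspase 8, was lower at 188, 166 and 203 against 258, 273 and 219 CPM (log2 -0.43, SE 0.11, adjusted p = 0.0577), with an adjusted p of 0.37 in the smaller fit. TRADD, RIPK1 and TRAF2 had log2 fold changes of -0.18, 0.21 and 0.14.

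Among 19 genes of cell survival and death tested, 5 were higher, 1 was lower, and the median log2 fold change was 0.22. BIRC3, the inhibitor of apoptosis that NFκB is known to induce, was 35.9, 21.8 and 22.4 CPM in the E2 libraries and 119, 190.3 and 49.0 CPM in the E2+TNFα libraries. Every E2+TNFα library was above every E2 library, again with replicate 2 the highest and replicate 3 the lowest. The log2 fold change of 2.15 (SE 0.35, adjusted p = 0.00484) fell to 1.47 with length and GC trends taken out and to 1.21 with the unwanted factor. SOD2, the mitochondrial superoxide dismutase, was 38.1, 24.8 and 33.5 CPM in the E2 libraries and 68.3, 72.2 and 58.7 CPM in the E2+TNFα libraries (log2 1.03, SE 0.14, adjusted p = 0.00101). BBC3, which encodes the death-promoting protein PUMA, also rose, from 3.96, 3.82 and 5.23 CPM to 10.6, 10.1 and 12.3 CPM (log2 1.33, SE 0.18, adjusted p = 8.54e-04), so the rises held members that protect from death and one that promotes it. BAK1, another death-promoting gene, was lower (log2 -0.52, SE 0.14, adjusted p = 0.0674), although not with the 6 libraries alone (adjusted p = 0.314). CFLAR, MCL1, XIAP and BCL2L1, all known to protect cells, had log2 fold changes of 0.33, 0.11, 0.42 and -0.32 and did not pass.

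Of 35 genes of adhesion, matrix remodelling and the acute phase, 8 were higher and 1 lower and the median log2 fold change was 0.25. Of these, 5 were called with the 6 libraries alone, all higher. PTX3, a secreted pattern recognition protein, was 94.4, 83.9 and 104 CPM in the E2 libraries and 467, 420.2 and 437 CPM in the E2+TNFα libraries, with a log2 fold change of 2.23 (SE 0.11, adjusted p = 9.61e-09). TNFRSF9, a receptor of the TNF family that costimulates T cells, was 10.0, 7.16 and 17.4 CPM in the E2 libraries and 40.1, 30.8 and 33.4 CPM in the E2+TNFα libraries, and CD83, a surface protein of activated immune cells, was 33.7, 40.3 and 43.2 CPM in the E2 libraries and 117, 103 and 107 CPM in the E2+TNFα libraries. The groups of all 3 were separate, with log2 fold changes of 1.57 (SE 0.24, adjusted p = 0.00277) for TNFRSF9 and 1.48 (SE 0.15, adjusted p = 2.83e-05) for CD83, the latter just under the size threshold. ICAM1, the ligand of leukocyte integrins, was 607, 826 and 745 CPM in the E2 libraries and 1742, 1547 and 2068 CPM in the E2+TNFα libraries (log2 1.30, SE 0.13, adjusted p = 4.19e-05). SDC4, a cell surface proteoglycan, rose from a mean of 1186 (SD 32.2) to 2125 CPM (SD 189.8, n = 3 each). PLAU, a protease of the matrix, CFB, a complement factor, and PTGS2, the inducible cyclooxygenase, rose by 0.48, 0.84 and 0.63 on the log2 scale, and SAA1, an acute phase protein, was lower at -0.42. None of these 4 had an adjusted p up to 0.1 with the 6 libraries alone (0.248, 0.264, 0.231 and 0.426).

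Of 27 regulators and targets of interferon tested, 2 were higher and 1 was lower (2.65% and 3.34% of all genes were). IRF1, a transcription factor that NFκB is known to induce, was 26.3, 34.5 and 28.1 CPM in the E2 libraries and 123, 111 and 132 CPM in the E2+TNFα libraries, with a log2 fold change of 2.05 (SE 0.13, adjusted p = 7.12e-08). IFNL1, an interferon lambda, was 0.751, 0.637 and 0.542 CPM in the E2 libraries and 2.59, 2.83 and 3.32 CPM in the E2+TNFα libraries, with separate groups at a low level (log2 2.16, SE 0.38, adjusted p = 0.00842). Its mean was 0.673 RPKM in E2 and 3.31 RPKM in E2+TNFα libraries, and it met the RPKM filter only through the latter. Its place among the genes tested thus rests on the libraries in which it was high. Of the other 25, none was higher. IFIT1, IFIT2 and IFIT3 had overlapping groups and log2 fold changes of 0.32, 0.11 and 0.06, ISG15 had -0.14 and MX1 -0.12. IFI6 was lower, at 18.4, 18.0 and 19.4 against 30.9, 40.9 and 24.2 CPM (log2 -0.77, SE 0.22, adjusted p = 0.0717), but not with the 6 libraries alone (adjusted p = 0.198). Of 16 genes of MHC class I and antigen processing, none was higher and 2 were lower (3.34% of all genes were lower). These were PSME1, an activator of the proteasome (log2 -0.79, SE 0.15, adjusted p = 0.0173), and PSMB8, a subunit of the immunoproteasome (log2 -0.47, SE 0.11, adjusted p = 0.0453), and only PSME1 kept an adjusted p up to 0.1 with the 6 libraries alone (0.0833). HLA-B, HLA-C and B2M had log2 fold changes of 0.14, 0.22 and 0.13, and the HLA genes resemble each other closely enough that reads may be split between them.

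Transcription factors of the AP-1 and immediate early class are known to respond to the kinase arm of TNF signaling. Of 28 tested, 8 were higher, none was lower and none passed the size threshold, with a median log2 fold change of 0.31. Of these, 3 were called with the 6 libraries alone. ETS1 was 159, 149 and 168 CPM in the E2 libraries and 329, 329 and 281 CPM in the E2+TNFα libraries (log2 0.98, SE 0.12, adjusted p = 2.56e-04) and its relative ETS2 was 43, 46.2 and 47.8 CPM in the E2 libraries and 85.1, 74.5 and 88.9 CPM in the E2+TNFα libraries (log2 0.86, SE 0.11, adjusted p = 4.63e-04). JUNB, a component of AP-1, was 64.3, 94.1 and 54.0 CPM in the E2 libraries and 111, 121 and 169.6 CPM in the E2+TNFα libraries (log2 0.93, SE 0.20, adjusted p = 0.0276). In these 3 genes no library of one group reached the other, and their adjusted p values with the 6 libraries alone were 0.00353, 0.0146 and 0.0546. ELF3, an epithelial factor induced by inflammation, NR4A1, KLF6, MAFF and MYC rose by 0.57, 0.79, 0.51, 0.49 and 0.44, with adjusted p values from 0.111 to 0.325 in the smaller fit. JUN, FOSL1, ATF3 and EGR1 had 0.30, 0.00, 0.39 and 0.40 and did not pass, and FOS was at most 1.62 CPM in any of the 6 libraries. Of 15 phosphatases and inhibitors that restrain MAP kinases, SPRY4 alone was higher (log2 0.69, SE 0.13, adjusted p = 0.0127), against 2.65% of all genes. DUSP1 and DUSP5 had 0.32 and 0.02.

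**Figure D3:**
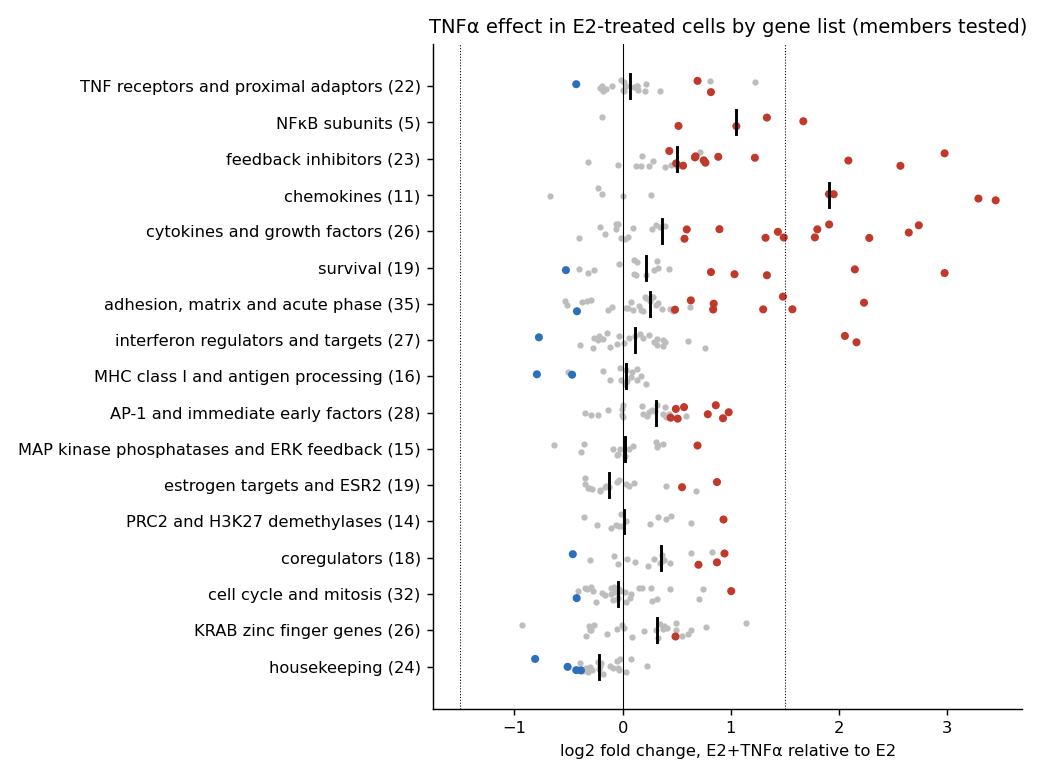
Log2 fold change of E2+TNFα relative to E2 (horizontal axis) for each tested member of 17 gene lists, whose number tested is in brackets. Red and blue points are members higher or lower at an adjusted p up to 0.1, grey points are the rest, and the black bar is the list's median, which is highest for chemokines at 1.91 and next for NFκB subunits at 1.05. Dotted lines mark 1.5 in either direction, and the low-count chemokines CCL20 and CCL2 are left out of the points.

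ESR2, the receptor activated by E2 in all 6 libraries, was separate between the groups, with a log2 fold change of 0.55 (SE 0.12, adjusted p = 0.0249), but it had an adjusted p of 0.143 with the 6 libraries alone and these reads include those of the artificial gene. Of 19 estrogen targets and ESR2 tested, 2 were higher and none lower (2.65% of all genes were higher). The other was NRIP1, a corepressor of nuclear receptors, at 5.19, 5.09 and 5.87 CPM in the E2 libraries and 10.00, 13.5 and 6.16 CPM in the E2+TNFα libraries (log2 0.87, SE 0.25, adjusted p = 0.0767, adjusted p = 0.336 with the 6 libraries alone). The classical target GREB1 was 44.9, 48.2 and 61.6 CPM in the E2 libraries and 50.2, 49.4 and 58.4 CPM in the E2+TNFα libraries. CST1, one of the cystatin genes that are known to respond to ERβ in this line, was 638, 788 and 634 CPM in the E2 libraries and 606, 524 and 654 CPM in the E2+TNFα libraries, and its relatives CST2, CST4 and CST5 had log2 fold changes of -0.31, -0.35 and -0.35. The groups of GREB1 and CST1 overlapped, and none of the cystatin genes passed, although CST2, CST4 and CST5 were lower in each E2+TNFα library than in any E2 library (9.27% of all genes were). These genes resemble each other closely, so reads may be split between them.

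The PRC2 subunits EZH2, EED and SUZ12, which the study links to ERβ and p65, were followed within wider lists of chromatin regulators and coregulators. Of 14 genes of the PRC2 complex, which places H3K27 methylation, and its opponents, 1 was higher, against 2.65% of all genes. This was KDM6B, a demethylase of H3K27 known to respond to inflammation, at 18.4, 26.9 and 22.8 CPM in the E2 libraries and 34.3, 38.1 and 55.7 CPM in the E2+TNFα libraries (log2 0.93, SE 0.19, adjusted p = 0.0243, adjusted p = 0.0733 with the 6 libraries alone). EZH2, the catalytic subunit, was 13.7, 11.3 and 15 CPM in the E2 libraries and 15.5, 13 and 11.1 CPM in the E2+TNFα libraries, with overlapping groups. EED and SUZ12 had log2 fold changes of -0.02 and 0.63. Of 18 coregulators, 3 were higher, namely the deacetylase SIRT1 (log2 0.94, SE 0.26, adjusted p = 0.0687), NRIP1 and the coactivator NCOA1 (log2 0.70, SE 0.20, adjusted p = 0.0729), and the deacetylase HDAC3 was lower (log2 -0.46, SE 0.11, adjusted p = 0.046). None of these 4 was called with the 6 libraries alone. In the cell cycle list, 1 of 32 genes was higher and 1 lower, shares near those over all genes (2.65% higher and 3.34% lower). These were the kinases CDK6 (log2 1.00, SE 0.25, adjusted p = 0.0467) and CDK4 (log2 -0.42, SE 0.11, adjusted p = 0.0474), and neither was called with the 6 libraries alone (adjusted p = 0.167 and 0.36). MKI67, a marker of proliferation, was 102, 162 and 195 CPM in the E2 libraries and 214, 169 and 167 CPM in the E2+TNFα libraries, and CCND1 had a log2 fold change of 0.07.

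Changes below the size threshold made up most of the calls. At an adjusted p up to 0.1, 256 genes rose (2.26%) and 376 fell (3.33%) by less than 1.5 on the log2 scale. In the smallest class, up to 0.58 (1.5-fold), 58 rose and 249 fell, between 0.58 and 1 the numbers were 132 and 116, and between 1 and 1.5 they were 66 and 11. These numbers depended on single libraries: without E2+TNFα replicate 2, 79 rose and 16 fell, and without E2+TNFα replicate 3, 828 rose and 743 fell. The 10 smaller rises with the lowest p were IRAK2, a kinase of interleukin 1 receptor signaling (17.3, 18.3 and 17.8 against 49.5, 43.7 and 53.2 CPM, log2 1.46 (SE 0.12, adjusted p = 3.16e-06)), CD83, CSF1, ICAM1, ANKRD33B, RELB, NFKB1, STAT5A, NFKBIA and ETS1. Of these, STAT5A, a transcription factor downstream of cytokine receptors, was 33.1, 39.8 and 43.8 CPM in the E2 libraries and 75.5, 81.4 and 105 CPM in the E2+TNFα libraries (log2 1.17, SE 0.14, adjusted p = 2.39e-04). ANKRD33B was 7.65, 8.12 and 9.12 CPM in the E2 libraries and 18.7, 19.9 and 21.7 CPM in the E2+TNFα libraries (log2 1.28, SE 0.14, adjusted p = 7.71e-05). All 10 had separate groups and were also called with the 6 libraries alone.

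The falls were smaller and of another kind. The 10 with the lowest p were AP1M2, RPL11, MEA1, HAX1, PSME1, UQCRH, TIMM22, RPL39, RPL7A and UBE2L6, with log2 fold changes between -0.99 and -0.54. AP1M2, a clathrin adaptor of epithelial cells, was 249.6, 271 and 231 CPM in the E2 libraries and 182, 143 and 151 CPM in the E2+TNFα libraries (log2 -0.66, SE 0.11, adjusted p = 0.00796), and RPL11, a protein of the large ribosomal subunit, was 698, 693 and 656 CPM in the E2 libraries and 459, 432 and 449 CPM in the E2+TNFα libraries (log2 -0.61, SE 0.11, adjusted p = 0.0103). UQCRH and TIMM22 belong to mitochondria, the first to respiratory complex III and the second to the import of inner membrane proteins, and UBE2L6 conjugates ISG15. All 10 had separate groups, yet with the 6 libraries alone only PSME1 and RPL39 kept an adjusted p up to 0.1 (0.0833 and 0.0651). Ribosomal protein genes were counted after RPL11, RPL39 and RPL7A had been seen. Of 81 tested, 42 were lower (3.34% of all genes were) and none higher, and their median log2 fold change was -0.52. With the 6 libraries alone 8 were lower, with library size as the only normalization 22, with the length and GC trends taken out 42 at a median of -0.37, and with the unwanted factor 57 at a median of -0.61. Of 26 KRAB zinc finger genes tested, which encode repressors of transcription, ZNF587 alone was called, near the share over all genes (2.65% higher). Their median log2 fold change was 0.32, against 0.01 over all genes, and 0.03 with the length and GC trends taken out. The zinc finger genes ZNF790, ZNF829 and ZFP1, outside this list, rose past the thresholds (log2 2.23, 1.54 and 1.75). None of them was called with the 6 libraries alone. ZNF587 was 27.3, 30.2 and 36.6 CPM in the E2 libraries and 44.2, 42.3 and 44.9 CPM in the E2+TNFα libraries (log2 0.48, SE 0.12, adjusted p = 0.054, and 0.337 with the 6 libraries alone). Of 24 housekeeping genes, 4 were lower (3.34% of all genes were), namely RPLP0 (log2 -0.81, SE 0.18, adjusted p = 0.0275), PPIA, GAPDH and PGK1, and none was higher. None of these 4 was called with the 6 libraries alone.

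Fold changes varied with properties of the transcript. Across genes, the log2 fold change had a Spearman correlation of -0.33 with the GC content of exons and of 0.46 with exon length, which are descriptions over genes that share these 6 libraries. The median exon length was 1552 bases for the smaller falls and 6340 bases for the smaller rises, against 3594 bases for all genes tested. For the 29 rises past the thresholds that were also called with the 6 libraries alone, it was 2090 bases, with a median of 36.4 CPM and 50.3% GC. The 15 that were not called there had a median of 1.23 CPM and 40.8% GC. Among them were MYSM1, SMC6, VPS13A, REV3L, ZFP1, ZNF829 and ZNF790. Of these, ZNF790, which encodes a zinc finger protein, was 0.615, 0.318 and 0.271 CPM in the E2 libraries and 2.41, 2.41 and 1.38 CPM in the E2+TNFα libraries, with a log2 fold change of 2.23 (SE 0.46, adjusted p = 0.0236). What part length, GC content and RNA quality had in the smaller changes was not tested beyond removing the trends.

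Other rises past the thresholds lay outside the lists. EFNA1, the membrane-bound ephrin A1 that was first found as a TNF-induced gene, was 81.1, 86.0 and 77.6 CPM in the E2 libraries and 445, 412 and 494 CPM in the E2+TNFα libraries, with a log2 fold change of 2.47 (SE 0.11, adjusted p = 5.28e-09). N4BP3 was 0.41, 2.23 and 0.812 CPM in the E2 libraries and 6.36, 5.66 and 8.94 CPM in the E2+TNFα libraries, with a log2 fold change of 2.84 (SE 0.41, adjusted p = 0.00151). It met the RPKM filter only through TNFα-treated libraries. PLPP3, a lipid phosphatase, ICOSLG, a costimulatory ligand, G0S2, an inhibitor of lipolysis, and HIVEP2, a zinc finger protein that binds κB-like sequences, rose by 1.82, 1.55, 1.52 and 1.51, and the groups of all 4 were separate. USP43, a deubiquitinase, was 12.6, 9.87 and 15.9 CPM in the E2 libraries and 41.6, 34 and 50.6 CPM in the E2+TNFα libraries (log2 1.70, SE 0.18, adjusted p = 6.16e-05). SERPINA3, a protease inhibitor of the acute phase, and CEACAM19, a member of the CEA adhesion family, rose by 1.6 and 1.62 on the log2 scale, from at most 4.93 and 2.17 CPM in E2 libraries. BDKRB1, a kinin receptor known to be induced in inflammation, was 0.615, 1.27 and 0.812 CPM in the E2 libraries and 3.46, 1.5 and 2.72 CPM in the E2+TNFα libraries (log2 1.58, SE 0.41, adjusted p = 0.0564). Its mean was 0.609 RPKM in E2 and 1.90 RPKM in E2+TNFα libraries, and it met the RPKM filter only through the latter.

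Several rises rested on few reads. TMEM88 had 1, 0 and 0 reads in the E2 libraries against 10, 16 and 40 in the E2+TNFα libraries, a ratio of 27 (exact 95% interval 4.68 to 1082). MEFV, which encodes the inflammasome protein pyrin, had 2, 0 and 0 against 13, 20 and 33 reads, a ratio of 13.5 (3.59 to 114). DOCK11 had 0, 0 and 1 against 11, 12 and 11 reads, a ratio of 13.9 (2.33 to 565), and GCNA had 0 reads in every E2 library against 2, 15 and 4, at least 2.86-fold higher. CD69, an activation marker of lymphocytes, was 0.615, 0 and 0 CPM in the E2 libraries and 2.28, 5.94 and 0.449 CPM in the E2+TNFα libraries, so its groups overlapped. BDKRB1, TMEM88, MEFV, DOCK11, GCNA and CD69 were not called with the 6 libraries alone. Both falls past the thresholds were PPIAL4A and PPIAL4C, near copies of the cyclophilin gene PPIA, at 1.78, 1.75 and 2.53 CPM in the E2 libraries and 0.864, 0.594 and 0.449 CPM in the E2+TNFα libraries for the former. Reads may be split between these copies and PPIA, which makes both uncertain, and neither was called with the 6 libraries alone (adjusted p = 0.258 and 0.27). C11orf98 was 0.751, 0.637 and 0.181 CPM in the E2 libraries and 0.74, 10.1 and 10.4 CPM in the E2+TNFα libraries, so its rise rested on 2 of 3 libraries. TMEM88, MEFV, CD69 and C11orf98 met the RPKM filter only through TNFα-treated libraries. Their place among the genes tested thus rests on that treatment.

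The same 3 h of TNFα can be set beside its effect in cells without E2 (TNFα relative to vehicle), which comes from the other 6 libraries. Of the 44 rises past the thresholds, 26 were past them in vehicle-treated cells as well (6.64% of all genes were higher past the thresholds there), 29 were higher at an adjusted p up to 0.1 (40.3% of all genes) and 14 were lower (41.6%). In that comparison 3016 genes (26.7%) were past the thresholds in either direction (908 with the unwanted factor, 1185 with length and GC trends removed). The difference of the 2 effects, tested in the same fit, was past the thresholds for 3593 genes (31.8%), with 76.6% of all genes at an adjusted p up to 0.1, and for 25 of the 46 genes.

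Among the targets with large responses in both, IRF1 had a log2 fold change of 2.05 with E2 and 4.58 without, a difference of -2.53 (adjusted p = 6.57e-08), and was 14.9 to 16.5 CPM in vehicle and 356 to 391 CPM in TNFα libraries. TNF was 0.258 to 0.362 CPM in vehicle and 33.9 to 38.6 CPM in TNFα libraries, a log2 fold change of 6.84, and the difference was -4.10 (adjusted p = 6.96e-07). LTB had 1.78 against 6.44 and EFNA1 2.47 against 5.42, and in both the vehicle libraries were far below the E2 libraries, at 2.70 to 4.22 and 11.9 to 13 CPM. For LTB, EFNA1, IRF1 and TNF the difference stayed negative under every alternative run. IL1B and IL6 had differences of -0.52 and -0.95. IL1B was 147 to 157 CPM in E2+TNFα and 1528 to 1708 CPM in TNFα libraries. CXCL1, CXCL2 and CXCL3 had positive differences of 0.61, 0.37 and 0.68 (adjusted p = 0.00222, 0.105 and 0.0232), and that of CXCL2 did not pass. CXCL3 was 8.86 to 11.1 CPM in vehicle and 57.7 to 76.0 CPM in TNFα libraries, above the E2 and E2+TNFα libraries respectively.

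Other genes rose with E2 and were lower after TNFα without it in the fit without an unwanted factor. BIRC3 was 58.4 to 78.1 CPM in vehicle and 10.1 to 12 CPM in TNFα libraries, a log2 fold change of -2.67, and the difference was 4.81 (adjusted p = 1.63e-06). CXCL8 was 887 to 1181 and 326 to 591 CPM, with a difference of 4.6. HIVEP2 and REL had differences of 2.21 and 3.36. With the unwanted factor the differences for BIRC3, REL and HIVEP2 were 0.50 (adjusted p = 0.728), 1.66 (0.391) and 1.70 (0.0502), and those for CXCL8 and IL1A changed sign with it, to -2.61 and -3.30. With E2, CXCL8 and BIRC3 then had log2 fold changes of 1.80 and 1.21, above their differences. Their point estimates without E2 were thus positive in that fit. REL and HIVEP2 then had 1.37 and 1.42 with E2, a little below their differences. Their estimates without E2 were thus slightly negative. None of these estimates without E2 is given with a test here. The factor came from 24 housekeeping genes. In the fit without it, 11 of them were higher and 5 lower for TNFα relative to vehicle (adjusted p up to 0.1). Over all genes, 40.3% were higher and 41.6% lower. Whether the factor took up part of the TNFα effect was not tested. The log2 fold change of TNFα relative to vehicle had a Spearman correlation of 0.71 with GC content across genes, opposite in sign to that of E2+TNFα relative to E2. The genes with the smallest p for the difference in each direction were HSPA1A, RPL9, HSPA1B, NBPF26 and RPS21 and, with the opposite sign, EDARADD, PABPC3, NACA2, EIF5AL1 and MIR622. For RPL9 the vehicle libraries held 626 to 699.9 CPM, the TNFα libraries 19.2 to 22, the E2 libraries 33.8 to 46.4 and the E2+TNFα libraries 27 to 35.4 CPM, and for all 10 genes the vehicle libraries lay outside the range of the other 9. Several of the 10 have near copies elsewhere in the genome, and what part the vehicle libraries had in the differences cannot be told apart from the effect of TNFα without E2.

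**Figure D4:**
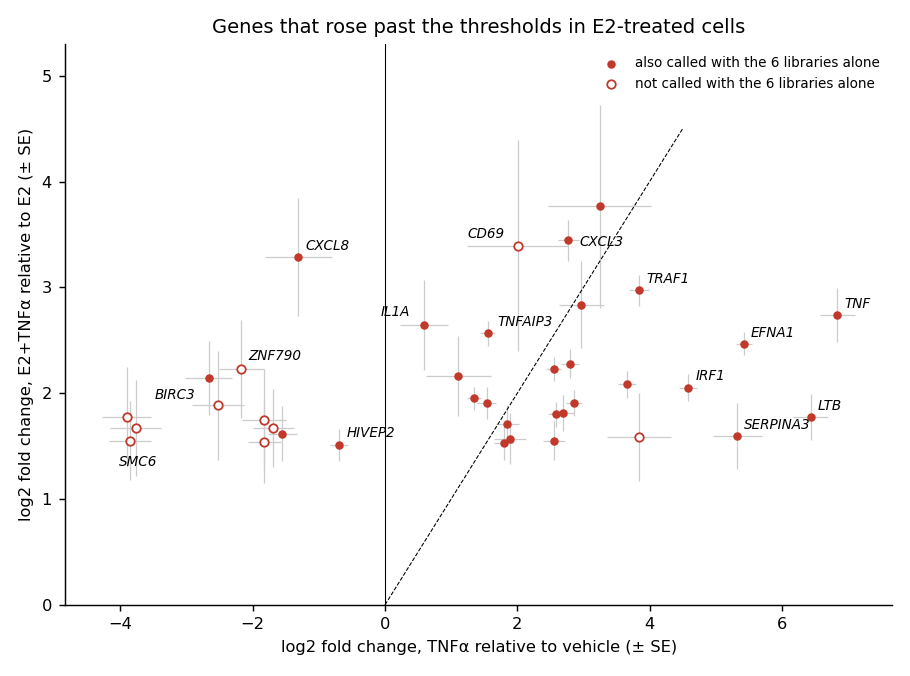
Log2 fold change of TNFα relative to vehicle (horizontal axis) and of E2+TNFα relative to E2 (vertical axis) for genes that rose past the thresholds in E2-treated cells, with bars of 1 SE, leaving out those with at most 3 reads over the E2 libraries. Filled points were also called with the 6 libraries alone. Points below the dashed line of equal effect, such as TNF, LTB and IRF1, rose less with E2. Points left of 0, such as CXCL8 and BIRC3, were lower after TNFα without E2 in this fit. With the unwanted factor, the point estimates of CXCL8 and BIRC3 there were positive, with no test given.

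**Figure D5:**
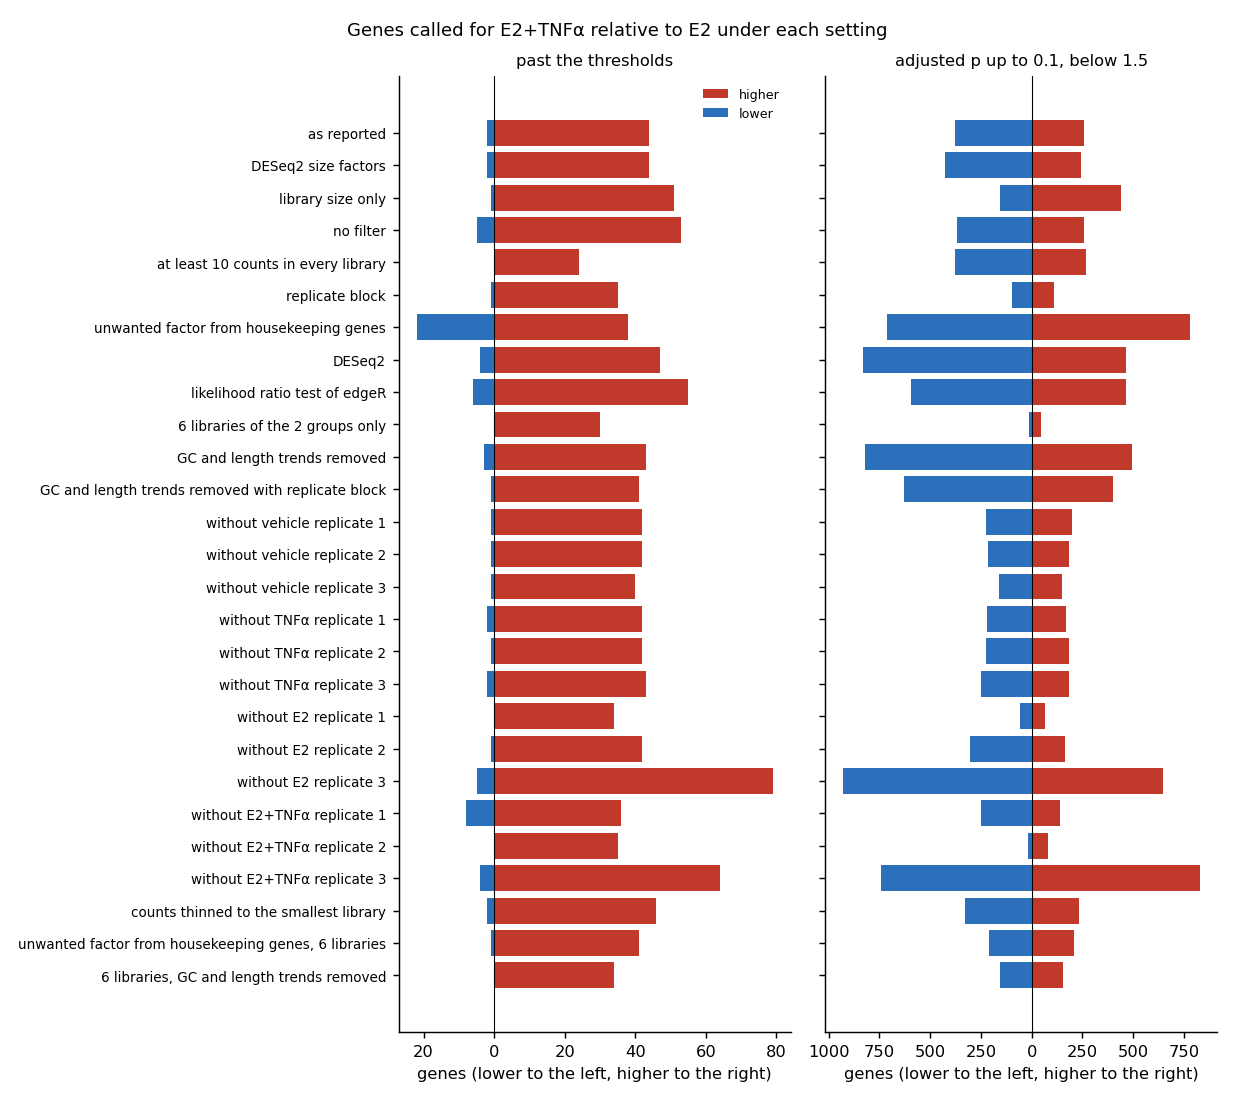
Number of genes called for E2+TNFα relative to E2 under each setting, with rises to the right in red and falls to the left in blue, past the thresholds (left panel) and at an adjusted p up to 0.1 below 1.5 (right panel). Rises past the thresholds outnumber falls under every setting, while the smaller changes number between 56 and 1574, with more rises than falls under some settings and fewer under others.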

How the data were processed

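Transcripts of the ERβ-expressing line were sequenced in 4 groups of 3 libraries, with groups taken from the sample labels. The deposited table holds raw counts of reads per gene, made by the authors with TopHat2 (version 2.1.0) and featureCounts, from a stranded mRNA kit, and the strand setting of the counting is not given in the sources used here. The study also corrected batches with RUVseq and its own housekeeping genes, a set not used here, and a like factor is an alternative below. The members, gene lists and named genes were chosen with earlier results of these data known.

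Of 12567 lines, 46 exact repeats and 70 second symbols of the same gene were dropped, leaving 12451, and 28 of these share a symbol with another. Genes with RPKM of at least 1 in at least 3 of the 12 libraries were tested (11303), with RPKM computed from the counts and the exon length in the table. Counts were scaled by TMM and fitted with edgeR (version 4.0.16, R 4.3.3) by the quasi-likelihood F test with a mean for each of 4 groups, two-sided, with Benjamini-Hochberg adjusted p over all genes. The thresholds were a log2 fold change of 1.5, p of 0.05 and adjusted p of 0.1. Data for all 12 libraries were simulated from each gene's mean over them and the library sizes, with 200 genes changed in the E2+TNFα libraries. Of these, 196 were called among 11303 (96 of 100 at 4-fold, 100 of 100 at 8-fold) with 2 of the others. Genes were drawn independently, with no factor shared within a library and no length or GC trend, so the recovery does not cover those.

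Genes were named by rule: list members, with values per library for the 3 largest called changes of each list, 8 p65 targets of the study (6 of its RT-qPCR, with BCL2A1 and CXCL1), the 15 largest rises and falls at a mean of at least 1 CPM without overlap, the 10 smaller changes of lowest p each way, and the 5 genes of lowest p each way for the difference between backgrounds. The other genes past the thresholds and the ribosomal protein genes were chosen after their values were seen. Alternatives used DESeq2 (1.42.0), library size only, other count filters, thinned counts, 1 unwanted factor from 24 housekeeping genes, loess trends in GC content and length (span 0.3), a replicate block, and leaving out each library. Intervals and floors cover counting error only. Replicate numbers were checked for pairing, and the check gave no sign of it for E2 and E2+TNFα libraries but cannot exclude it.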

Additional observations from a re-analysis of the deposited data

Results flagged for a closer look

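The difference between the effect of TNFα in E2-treated and in vehicle-treated cells, tested in 1 fit over all 12 libraries, was past the thresholds for 3593 genes, among them 25 of the 46 genes past the thresholds for E2+TNFα relative to E2. These 25 are listed here because the tested difference between backgrounds passed. A negative difference means a lower log2 fold change with E2. The difference was -4.66 for LTB, -4.10 for TNF, -3.73 for SERPINA3, -2.98 for PPIAL4A, -2.96 for EFNA1, -2.53 for IRF1, -2.26 for BDKRB1 and -1.57 for TNFAIP2. It was 2.05 for IL1A, 2.21 for HIVEP2, 3.17 for CEACAM19, 3.21 for TMEM88, 3.36 for REL, 3.36 for ZNF829, 3.58 for ZFP1, 4.4 for ZNF790, 4.41 for REV3L, 4.6 for CXCL8 and 4.81 for BIRC3. The values of 5.15 for CCL20, 5.41 for SMC6, 5.44 for VPS13A, 5.68 for MYSM1, 8.36 for DOCK11 and 10.0 for GCNA were larger, but CCL20, DOCK11, GCNA and TMEM88 had at most 1 read over the E2 libraries, so their fitted differences depend on the prior count and are no measure of size. CCL20, TMEM88 and BDKRB1 met the RPKM filter only through TNFα-treated libraries.

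Under the alternatives run, the sign changed for CXCL8, IL1A and BDKRB1, each with the unwanted factor, where the differences were -2.61, -3.30 and 0.29. The other 22 kept their sign, but with the unwanted factor only 8 of the 25 stayed past the thresholds in the same direction, among them LTB, TNF, EFNA1 and IRF1. BIRC3 was then 0.50, TNFAIP2 -0.56, VPS13A 1.35, SMC6 1.57, REV3L 1.57 and ZFP1 1.27, with adjusted p values of 0.728, 0.28, 0.469, 0.614, 0.564 and 0.576. With the length and GC trends taken out, 18 stayed past them in the same direction, and IL1A was 0.10 (adjusted p = 0.825). No sample was tested for standing apart from its group by gap, since all groups hold 3 libraries.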

How the results depend on the processing

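Of 4523 values for 175 genes under alternatives, 4015 stayed on their side of the threshold, 447 kept the direction but missed it (66 of them with the 6 libraries alone, 55 without E2 replicate 1 and 45 without E2+TNFα replicate 2), and 60 newly passed it. IFIT2 reversed, to -0.61 with the unwanted factor. The number of genes past the thresholds for E2+TNFα relative to E2 (46) was 24 with at least 10 counts in every library, 30 with the 6 libraries alone, 60 with the unwanted factor (38 higher, 22 lower) and 61 with the likelihood ratio test. It ranged from 34 to 84 when 1 library was left out, the extremes being without E2 replicate 1 and without E2 replicate 3. The smaller changes (632, 256 of them higher) numbered 1491 with the unwanted factor (780 higher), 1296 with DESeq2, 1063 with the likelihood ratio test, 56 with the 6 libraries alone (44 higher), and 1316 with length and GC trends taken out. They ranged from 95 to 1574 when 1 library was left out: 95 without E2+TNFα replicate 2, 123 without E2 replicate 1, 1571 without E2+TNFα replicate 3, 1574 without E2 replicate 3, and 309 to 409 without vehicle replicate 2 or 3 or TNFα replicate 1 or 2. Scaled by library size alone, all genes had a median of 0.13, and 440 of 596 smaller changes were higher. Alternatives chosen after seeing the data, both on the 6 libraries, gave 418 with an unwanted factor and 312 with the trends removed. The difference between backgrounds (3593 genes) gave 1080 with the unwanted factor and 1557 with the trends removed, and ranged from 3257 to 3918 when 1 library was left out. The cause of these shifts was not tested. The E2 libraries are the shallowest here, so rises from under about 3 reads are known only as bounds or ratios with wide intervals.

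Deviations of E2 and E2+TNFα libraries with the same replicate number had correlations of 0.04, -0.48 and -0.23, and those of vehicle and TNFα libraries 0.33, 0.22 and -0.05. The first 3 values gave no sign of pairing by number. With 3 libraries per group they cannot exclude that dishes of one number were handled together. With a replicate block 36 genes passed the thresholds and 204 smaller changes were called (108 higher), with the block and the trends removed 1030 smaller changes and, for the difference between backgrounds, 1554 genes.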
